A study of Mus musculus with 16 samples.

Results

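Levels of the forkhead factors Foxo1, Foxo3 and Foxo4, the stress-response factor Nfe2l2, the thioredoxin inhibitor Txnip and the antioxidant enzymes Sod1, Sod2, Cat and Gpx1 were followed across mouse blood stem cells and pluripotent cells. The genes were taken by symbol, as every probe set whose single gene symbol was on a list of 10 names, and that rule used no measured value, although the names were listed with earlier results of these data known. This gave 25 probe sets of 45101 on the array, which represent 9 genes of 18193 with a probe set of their own. Prdx1, which encodes a peroxiredoxin that reduces peroxides, was the listed name without values, because its 5 probe sets are shared with a second gene symbol. Foxo1 and Sod2 had 4 probe sets each, Sod1 had 5, Foxo3 had 3, Gpx1 had 1, and Foxo4, Cat, Txnip and Nfe2l2 had 2 each.

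The 16 arrays came from wild-type C57Bl6 mice or cells of that strain, with RNA of 10000 cells per array. Induced pluripotent stem cells (iPSC), which are blood cells reprogrammed to a state like that of an early embryo, were of aged haematopoietic origin on 2 arrays and of young haematopoietic origin on 2. Embryonic stem cells (ESC), the pluripotent reference, came from the suppliers Open Biosystems and Primogenix, with 1 array each. Both pluripotent cell types were grown on mouse embryonic fibroblast (MEF) feeder cells. Haematopoietic stem cells (HSC), the marrow cells that sustain all blood lineages, were sorted from recipients of aged marrow (2 arrays) and of young marrow (2 arrays), called transplanted below. Steady-state HSC were sorted from undisturbed male mice aged 21 to 24 months (3 arrays) or 3 to 4 months (3 arrays). The labels name no sort markers, reprogramming vector or clone, no recipient sex or age, and do not say whether animals were pooled. Arrays of one group are labelled as biological replicates in all groups but ESC, and p-values rest on the scatter between arrays within groups, pooled over the groups of a fit (the ESC pair included where ESC were fitted) and moderated over all genes.

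FoxO proteins are transcription factors that insulin and cytokine signalling switches off, through phosphorylation by AKT and export from the nucleus. In the nucleus they turn on genes of cell cycle arrest, autophagy and peroxide defence, and mouse HSC that lack them accumulate reactive oxygen species and lose the ability to self-renew. Nfe2l2 encodes NRF2, which KEAP1 marks for degradation until oxidants or electrophiles release it, and which then binds antioxidant response elements in front of detoxifying and antioxidant genes. Txnip binds and inhibits thioredoxin and limits glucose uptake. The superoxide dismutases turn superoxide into hydrogen peroxide, which catalase and glutathione peroxidases then remove.

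The upstream sequences of Txnip, Foxo3, Nfe2l2 and Sod2 are shown because the iPSC arrays of these 4 genes lay entirely apart from the steady-state HSC arrays. Each is the 250 bases before the annotated start, read 5′ to 3′ on the gene's strand, from RefSeq on GRCm38.p6: Txnip at chr3:96557707-96557956 on the plus strand, Foxo3 at chr10:42276696-42276945 on the minus strand, Nfe2l2 at chr2:75704664-75704913 on the minus strand and Sod2 at chr17:13007589-13007838 on the plus strand. Capitals mark a match, on either strand, to the FoxO motif GTAAACA or to the antioxidant response element core TGACNNNGC.
Txnip: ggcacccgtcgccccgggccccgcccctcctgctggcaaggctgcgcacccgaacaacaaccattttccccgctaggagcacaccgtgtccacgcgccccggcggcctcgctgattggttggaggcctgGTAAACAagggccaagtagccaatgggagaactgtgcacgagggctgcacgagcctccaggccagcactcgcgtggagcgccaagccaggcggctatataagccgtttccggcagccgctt
Foxo3: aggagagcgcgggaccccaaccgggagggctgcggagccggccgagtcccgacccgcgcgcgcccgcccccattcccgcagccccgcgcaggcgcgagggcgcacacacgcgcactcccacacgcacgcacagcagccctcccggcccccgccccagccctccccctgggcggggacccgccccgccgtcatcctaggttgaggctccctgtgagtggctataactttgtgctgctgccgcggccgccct
Nfe2l2: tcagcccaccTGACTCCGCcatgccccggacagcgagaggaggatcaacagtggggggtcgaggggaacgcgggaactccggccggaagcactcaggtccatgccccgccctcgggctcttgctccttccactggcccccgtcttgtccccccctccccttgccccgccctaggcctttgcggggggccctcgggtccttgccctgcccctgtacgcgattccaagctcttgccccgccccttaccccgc
Sod2: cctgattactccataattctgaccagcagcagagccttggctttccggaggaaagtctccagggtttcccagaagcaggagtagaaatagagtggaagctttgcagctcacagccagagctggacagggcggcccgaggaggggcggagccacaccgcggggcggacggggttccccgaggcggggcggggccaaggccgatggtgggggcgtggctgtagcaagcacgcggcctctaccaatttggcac
The Txnip sequence held 1 FoxO motif, at positions -121 to -115 from the start, and was the only one of 9 listed genes with an upstream sequence to hold that motif. The motif occurs in 3.17% of 32851 promoter windows of the same length. The antioxidant response element core was present in 3 of the 9, namely Nfe2l2, Sod1 and Prdx1, against 10.2% of all windows, and the E-box CACGTG in 0 of the 9, against 6.02%. These are letter matches and say nothing of binding.

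Levels below are log2 of the deposited intensity, and a gene's level is that of its brightest probe set over the 16 arrays unless another is named. A gene was called changed at a Benjamini-Hochberg adjusted p under 0.05 in limma, adjusted over all 13645 genes tested. Array medians were 50.2 to 51.8 intensity units on the transplanted HSC arrays and 43.4 to 46.3 on all others. Over genes the order was opposite, with a median log2 level of 6.09 in both transplanted groups and 6.42 to 6.53 in the other groups. The distribution of that setting thus differed, and a higher scale is not read from the array medians. No 2 arrays of a group held identical values. Of 7 measured HSC markers, the mean level was 5.59 to 5.80 on the iPSC and ESC arrays, 9.04 to 9.65 on the transplanted HSC arrays and 10.85 to 11.18 on the steady-state HSC arrays. Of 7 pluripotency markers it was 10.49 to 10.76 on the iPSC and ESC arrays and 3.73 to 4.21 on the HSC arrays. RNA came from bulk cells, in which fewer cells of a type and less RNA per cell cannot be told apart.

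**Figure D1:**
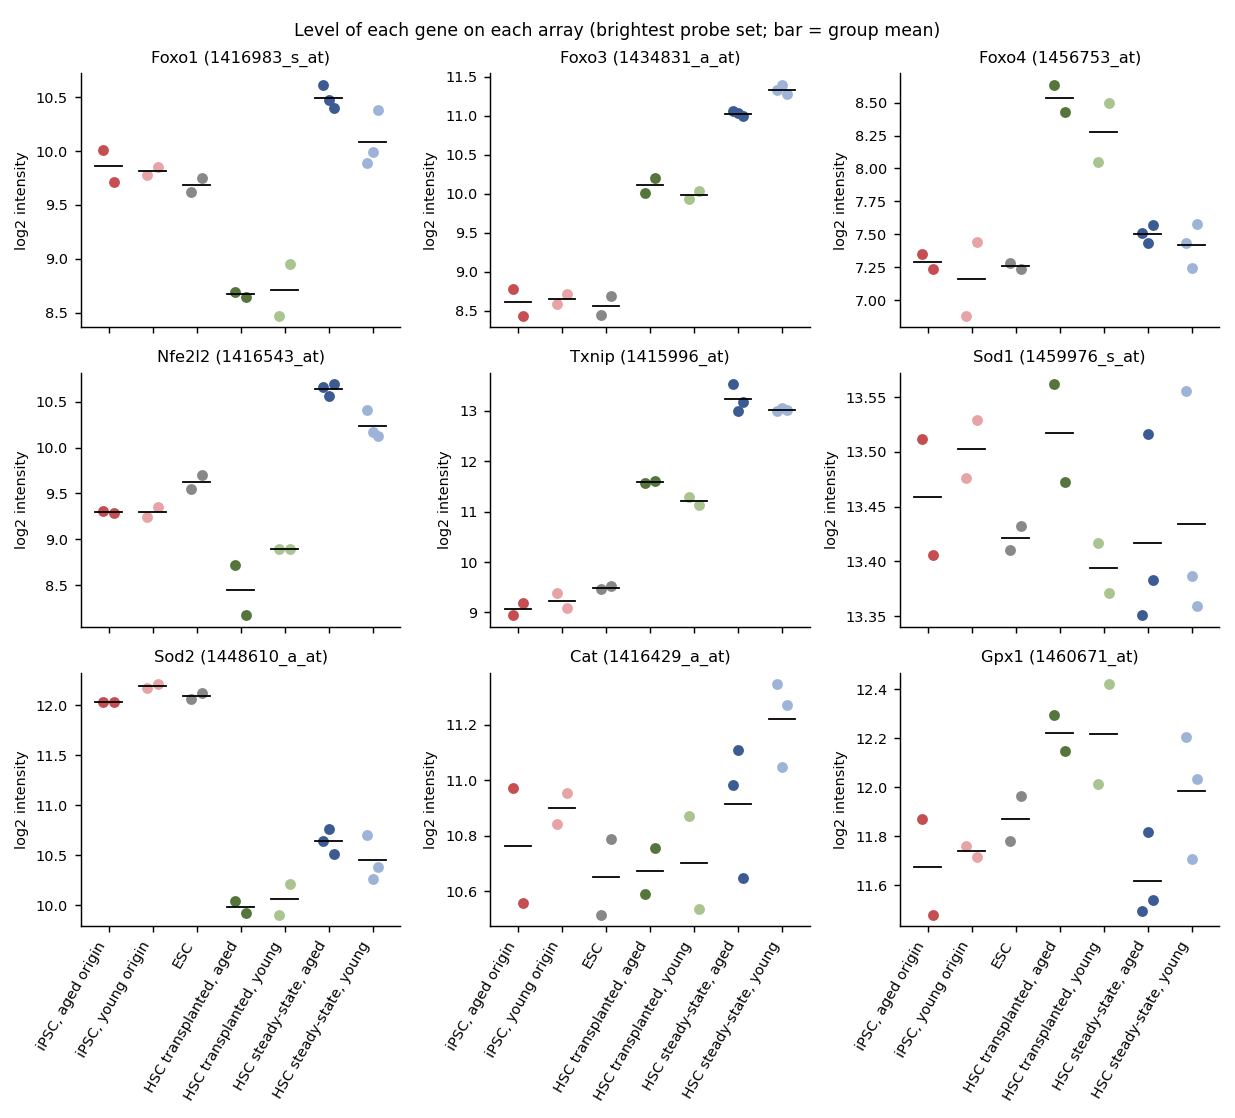
Log2 intensity of the brightest probe set of each of the 9 genes on every array, by group, with a bar at the group mean and a separate vertical scale per gene. Txnip and Foxo3 are highest in steady-state HSC, lower in transplanted HSC and lowest in iPSC and ESC, Sod2 is highest in iPSC and ESC, and Sod1 spans only 13.35 to 13.56 over all arrays.

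Foxo3, the FoxO factor whose loss alone impairs mouse HSC maintenance, was highest in steady-state HSC and lowest in pluripotent cells on its brightest probe set. It reached 8.78 and 8.44 in aged-origin iPSC, 8.59 and 8.72 in young-origin iPSC, and 8.45 and 8.68 in ESC. In transplanted HSC it was 10.01 and 10.20 after aged marrow and 9.93 and 10.03 after young marrow. In steady-state HSC it was 11.06, 11.03 and 10.99 in aged mice and 11.32, 11.39 and 11.28 in young mice. The 3 settings therefore did not overlap, while the 3 pluripotent groups overlapped one another. Probe set 1450236_at of Foxo3 had another order, with transplanted HSC highest at means of 11.07 after aged and 10.83 after young marrow, and steady-state HSC lowest at 4.73 in aged and 4.94 in young mice.

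Foxo1, the factor best known from insulin signalling and B cell development, had another order. It was 10.01 and 9.72 in aged-origin iPSC, 9.78 and 9.85 in young-origin iPSC, and 9.63 and 9.75 in ESC. Transplanted HSC held the lowest arrays, 8.69 and 8.65 after aged marrow and 8.47 and 8.95 after young marrow. Steady-state HSC held the highest, 10.62, 10.47 and 10.40 in aged mice and 9.89, 9.99 and 10.38 in young mice. The aged-origin iPSC arrays overlapped those of young steady-state HSC, and both iPSC groups lay above all transplanted HSC arrays.

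Foxo4, the FoxO factor encoded on the X chromosome, ranged from 6.89 to 7.45 on the iPSC and ESC arrays. It ranged from 8.05 to 8.63 on the transplanted HSC arrays and from 7.24 to 7.58 on the steady-state HSC arrays. Only transplanted HSC stood apart on this probe set. On the second probe set, 1422149_at, transplanted HSC were lowest instead, at means of 4.56 after aged and 4.86 after young marrow. Means of the other groups on it were 5.19 to 5.91.

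Nfe2l2 was 9.30 and 9.28 in aged-origin iPSC, 9.24 and 9.35 in young-origin iPSC, and 9.55 and 9.70 in ESC. It was 8.72 and 8.17 in transplanted HSC after aged marrow and 8.89 and 8.90 after young marrow. It was 10.66, 10.56 and 10.69 in aged steady-state HSC and 10.41, 10.17 and 10.12 in young steady-state HSC. Steady-state HSC were the highest setting and transplanted HSC the lowest, with pluripotent cells between them. On the second probe set, 1457117_at, the pluripotent cells were lowest, with group means of 4.01 to 4.49 that were under the 25th percentile over genes.

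Txnip had the widest range of the 9 genes. It was 8.94 and 9.19 in aged-origin iPSC, 9.39 and 9.08 in young-origin iPSC, and 9.46 and 9.52 in ESC. It was 11.57 and 11.61 in transplanted HSC after aged marrow and 11.29 and 11.13 after young marrow. It was 13.53, 13.00 and 13.17 in aged steady-state HSC and 12.99, 13.05 and 13.01 in young steady-state HSC, and no array of one setting reached another. On the second probe set, 1415997_at, transplanted HSC were above steady-state HSC, with means of 11.32 after aged and 10.83 after young marrow against 9.84 in aged and 9.36 in young mice, and the arrays overlapped. Over the 7 group means Txnip and Foxo3 ran in parallel (Pearson r = 0.990), as did Foxo1 and Nfe2l2 (r = 0.907), whereas Foxo1 and Gpx1 ran opposite (r = -0.875). These correlations describe 7 points that share arrays, scaling and cell type.

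Among the enzymes, Sod2, the mitochondrial manganese superoxide dismutase, separated pluripotent cells from HSC on its brightest probe set. Its level was 12.03 and 12.03 in aged-origin iPSC, 12.18 and 12.21 in young-origin iPSC, and 12.06 and 12.13 in ESC. It was 9.90 to 10.22 on the transplanted HSC arrays and 10.26 to 10.77 on the steady-state HSC arrays, so the pluripotent arrays lay apart from all HSC arrays. Other Sod2 probe sets did not all separate them. Group means were 8.77 to 8.98 in pluripotent cells and 8.82 to 9.26 in HSC on 1454976_at. On 1417194_at they were 5.42 to 5.70 and 5.40 to 7.46.

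The other enzymes varied little on their brightest probe sets. Sod1, the cytosolic copper-zinc superoxide dismutase, had group means of 13.39 to 13.52, with each group overlapping the next in the order of means. Other Sod1 probe sets varied more. Group means ran from 7.14 in young-origin iPSC to 9.14 in aged steady-state HSC on 1435304_at. On 1440222_at they ran from 6.31 in aged steady-state HSC to 8.38 in ESC. Cat, the peroxisomal catalase, had group means between 10.65 in ESC and 11.22 in young steady-state HSC, again with overlap at every step. On its second probe set, 1416430_at, transplanted HSC stood apart at 10.38 after aged and 10.27 after young marrow. Means of the other groups on it were 9.30 to 9.86. Gpx1, a cytosolic glutathione peroxidase, averaged 11.68 ± 0.28 in aged-origin iPSC, 11.74 ± 0.03 in young-origin iPSC, 11.87 ± 0.13 in ESC, 12.22 ± 0.10 in transplanted HSC after aged marrow, 12.22 ± 0.29 after young marrow, 11.62 ± 0.17 in aged steady-state HSC and 11.98 ± 0.25 in young steady-state HSC (SD, n = 2, or 3 for steady state). Neither Cat nor Gpx1 separated pluripotent cells from steady-state HSC.

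iPSC were compared with steady-state HSC, over all ages, to ask how reprogrammed blood cells differ from the stem cells of the marrow. Txnip, Foxo3, Nfe2l2 and Foxo1 were lower in iPSC and Sod2 was higher, while Foxo4, Sod1, Cat and Gpx1 were not called. That is 5 of 9 genes, in a comparison in which 76.4% of all genes were called, 41.8% higher and 34.7% lower. The median log2 difference was -0.24 over the 9 genes and 0.17 over all genes. The arrays did not overlap for Txnip, Foxo3, Nfe2l2 and Sod2, 4 of 9 against 73.3% of all genes.

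Txnip was 15.7-fold lower in iPSC (log2 difference -3.97, SE 0.12, adjusted p 1.22e-12), and 352 of 13645 genes had a lower log2 difference. Foxo3 differed by -2.55 (SE 0.11, adjusted p 3.71e-11), which is 5.84-fold lower. Nfe2l2 differed by -1.14 (SE 0.12, adjusted p 8.42e-07). The second Txnip probe set, 1415997_at, differed by -3.46 and Foxo3 probe set 1434832_at by -3.29, each called lower in the fit of single probe sets. The third Foxo3 probe set, 1450236_at, was at 5.08 in iPSC and 4.84 in steady-state HSC and was not called. The second Nfe2l2 probe set, 1457117_at, was called lower too, but its 4.25 in iPSC was under the 25th percentile over genes, against 5.53 in steady-state HSC, so the size of its difference is not given.

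Sod2 was 2.96-fold higher in iPSC (log2 difference 1.57, SE 0.12, adjusted p 1.97e-08). Its probe set 1417193_at gave 1.83 and was called higher, 1454976_at gave -0.37 and was called lower, and 1417194_at gave 0.15 and was not called. Foxo1 differed by -0.45 (SE 0.13, adjusted p 0.00701) with overlapping arrays. Its probe set 1416981_at gave 0.59 and was called higher, and the call on Foxo1 was lost when its probe sets were averaged (log2 difference 0.01) or when the replicate number was a block (-0.36, adjusted p 0.196). Foxo1 therefore had no difference that held over its probe sets.

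Foxo4 gave -0.23 (95% interval -0.52 to 0.06), Cat -0.24 (-0.53 to 0.06), Gpx1 -0.09 (-0.39 to 0.20) and Sod1 0.06 (-0.15 to 0.26), and the sign turned with quantile normalisation for Foxo4 and Sod1 and with median centring for Sod1. Sod1 probe sets disagreed, with 1435304_at at -1.87 and 1440222_at at 1.56, both called. Of the 24 probe sets tested, 5 were called higher, 11 lower and 8 not at all, against 39.1% and 32.2% of all probe sets called higher and lower. Markers of feeder fibroblasts moved with this contrast: the mean level of 7 such genes was 5.29 to 6.02 on the iPSC arrays and 4.88 to 5.08 on the steady-state HSC arrays, and their part in these differences was not tested.

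**Figure D2:**
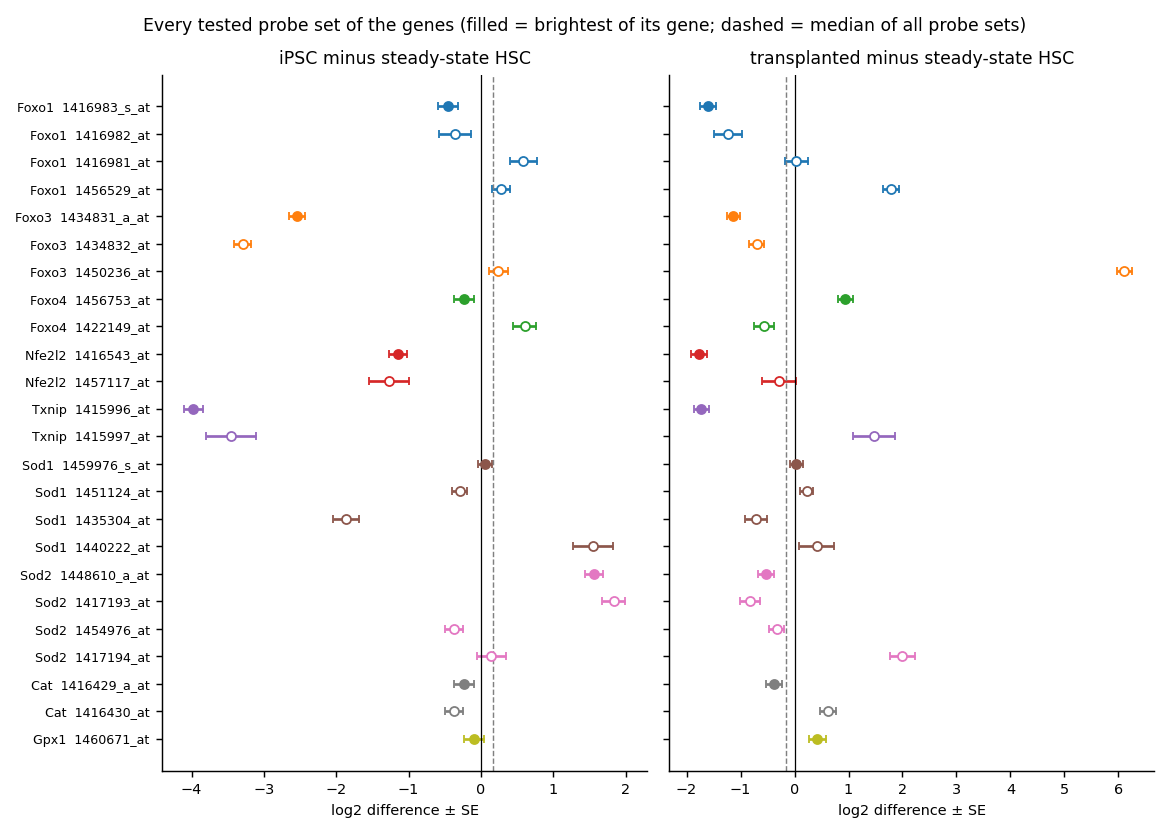
Log2 difference with its SE for each of the 24 tested probe sets of the 9 genes, iPSC minus steady-state HSC on the left and transplanted minus steady-state HSC on the right, with filled points for the brightest probe set and a dashed line at the median of all probe sets. Both Txnip and both Nfe2l2 probe sets lie below 0 on the left, while on the right probe sets of the same gene lie on both sides of 0 and Foxo3 probe set 1450236_at reaches 6.11.

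Genes known as FoxO targets were mostly lower in iPSC. Of 22 listed targets, 20 were tested and 15 were called lower, against 34.7% of all genes, while 4 were called higher and 1 was not called. Their median log2 difference was -2.04, against 0.17 over all genes, and 15 were also called lower with each array left out in turn. The largest falls were in Pik3ip1, an inhibitor of PI3 kinase, at 6.90 in iPSC and 11.16 in steady-state HSC (log2 difference -4.26), in Ccng2, a cyclin of arrested cells, at 6.51 in iPSC and 10.62 in steady-state HSC (-4.11), and in Tnfsf10, the death ligand TRAIL, at 5.84 in iPSC and 9.78 in steady-state HSC (-3.94). Klf2, a factor of both quiescent lymphocytes and naive pluripotency, was higher at 10.96 in iPSC and 6.67 in steady-state HSC (4.29), as were Irs2, an insulin receptor adaptor (1.83), and Pdk4, a brake on pyruvate use (1.20). Of the 14 called targets with a further probe set, 3 had one called in the opposite direction, near the 22.1% of 5200 such genes over the array.

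The other lists held calls in both directions in iPSC, where 34.7% of all genes were called lower and 41.8% higher, and nothing particular to these lists is read from their counts. Of 17 tested regulators of FoxO, 7 were lower and 5 higher, with Pik3r1, a regulatory subunit of PI3 kinase, at -4.82, Inpp5d, the phosphatase SHIP1, at -2.56 and Stk4, the kinase MST1, at -1.94, and with Sgk1, a FoxO kinase, at 3.41, Skp2, an F-box protein that targets Foxo1 for degradation, at 1.35 and Pdpk1 at 1.09. Of 24 tested NRF2 regulators and targets, 10 were lower and 9 higher. The haematopoietic factor Nfe2 was at 3.94 in iPSC, below the 25th percentile of all genes, and at 10.84 in steady-state HSC (-6.91). Bach1, a repressor at antioxidant response elements, was at -2.79 and the exporter Abcc1 at -1.37, whereas the glutathione transferase Gsta4 was at 4.40, Gclm, the modifier subunit of glutathione synthesis, at 1.37, and malic enzyme Me1 at 1.29.

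Of 29 tested further antioxidant enzymes, 12 were higher in iPSC and 9 lower. Gpx2 (2.77) and Gpx4, which reduces lipid peroxides (1.87), were higher, while glutaredoxin Glrx (-4.51), the mitochondrial peroxiredoxin Prdx3 (-1.82) and Msra (-1.42) were lower. Of 11 tested Txnip relatives and partners, the arrestin Arrdc4 (-2.50), the Txnip ubiquitin ligase Itch (-1.38) and the stress gene Ddit4 (-1.04) were among 5 lower. The glucose transporter Slc2a1, which Txnip restrains, was among 4 higher (2.48), with Nlrp3 (0.54) and Mlx (0.37). Of 6 tested NADPH oxidase subunits, which produce superoxide in phagocytes, Rac2 (-3.07), Cyba (-1.72) and Ncf1 (-1.70) were among 4 lower, and Rac1 (1.09) and Noxo1 (0.72) were higher.

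**Figure D3:**
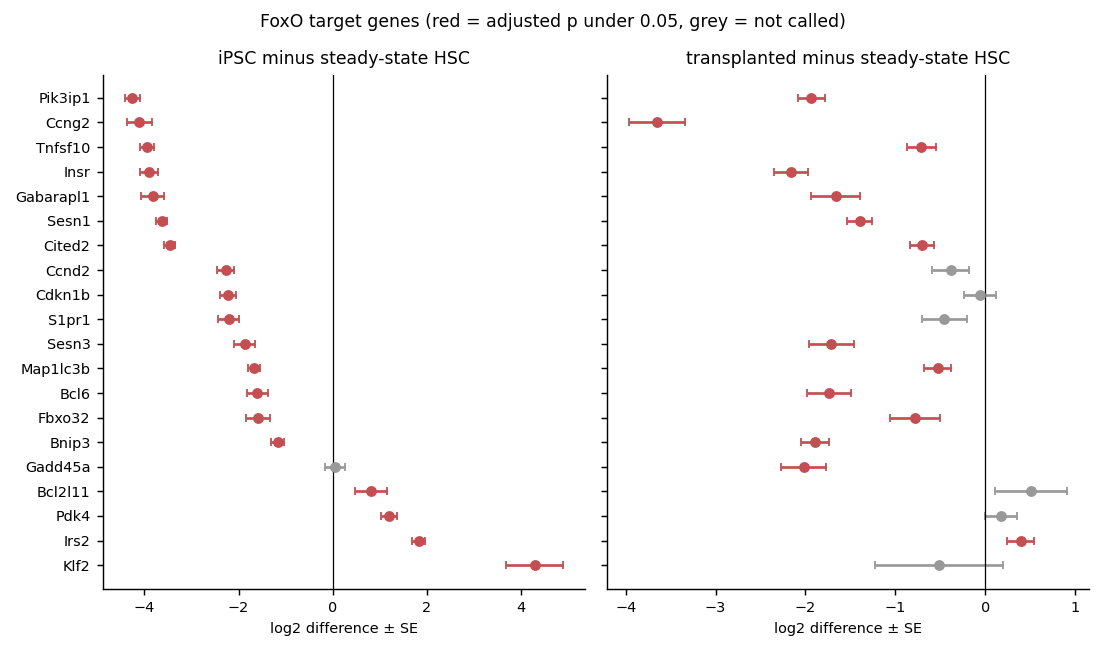
Log2 difference with its SE for the 20 tested FoxO target genes, iPSC minus steady-state HSC on the left and transplanted minus steady-state HSC on the right, red where the adjusted p is under 0.05. On the left 15 genes are called lower and 4 higher, and on the right 13 lower and 1 higher.

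iPSC were then set against ESC, which had not passed through a blood cell. None of the 9 genes was called (0 of 9, 2 at an unadjusted p under 0.05), where 0.11% of all genes were called and 12.7% had an unadjusted p under 0.05. The same 2 genes, Txnip and Nfe2l2, were lower on all 4 iPSC arrays than on both ESC arrays. Txnip differed by -0.34 (95% interval -0.63 to -0.05, adjusted p 0.337) and Nfe2l2 by -0.33 (-0.58 to -0.09, adjusted p 0.283). Such separation of arrays occurred in 2 of 9 genes and in 23.8% of all genes. The other 7 genes differed by at most 0.18 in size. Feeder fibroblast markers averaged 5.29 to 5.46 on the aged-origin iPSC arrays, 5.29 and 6.02 on the young-origin ones, and 5.96 to 5.99 on the ESC arrays. All 5 tested were lower in iPSC (median log2 difference -0.47), none of them called. Of the macrophage markers, Cd68 was called lower (-1.67), and the other 3 tested were above 0 and not called. The part of these cells was not tested.

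Age was compared within each of the 3 settings, the question the series was built on. In steady-state HSC of aged against young mice, none of the 9 genes and none of their 24 tested probe sets was called (0 of 9, 1 at an unadjusted p under 0.05), where 1.18% of all genes were called and 6.31% had an unadjusted p under 0.05, and where 0.759% of all probe sets were called. Nfe2l2 was higher on every aged array, by 0.40 (SE 0.18, 95% interval 0.00 to 0.80, adjusted p 0.789). Foxo1 was also higher on every aged array, by 0.41 (SE 0.19, interval -0.02 to 0.83, adjusted p 0.843), and Foxo3 was lower on every aged array, with a log2 difference of -0.31 (SE 0.14, interval -0.63 to 0.01, adjusted p 0.850). Non-overlapping arrays occurred in these 3 of 9 genes and in 18.2% of all genes.

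The enzymes gave -0.37 for Gpx1 (interval -0.79 to 0.06), -0.31 for Cat (-0.72 to 0.10), 0.19 for Sod2 and -0.02 for Sod1 in the same comparison, Txnip gave 0.21 (-0.17 to 0.59) and Foxo4 0.09. All their arrays overlapped between the ages. At 3 arrays a group, no interval on the brightest probe sets reached a 2-fold difference with age: the outermost bounds were -0.79 and 0.83. These bounds do not cover the other probe sets, of which some scattered more. Nfe2l2 probe set 1457117_at had an SD of 0.85 in aged and 0.53 in young steady-state HSC.

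**Figure D4:**
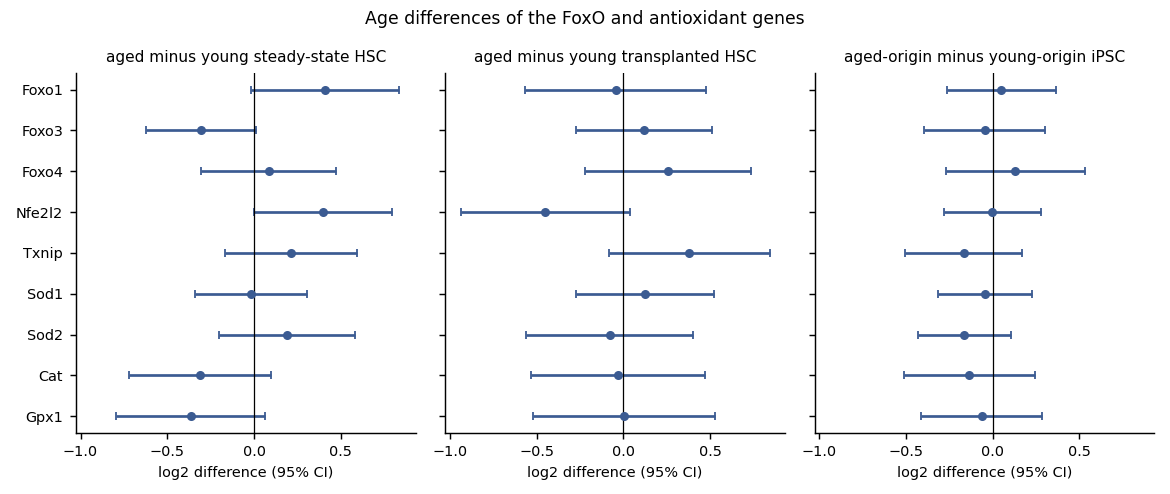
Log2 difference between aged and young, with its 95% interval, for the 9 genes, from left to right in steady-state HSC, transplanted HSC and iPSC by origin. No gene passes the adjusted threshold in any panel, and Nfe2l2 lies at 0.40 in the left panel and at -0.45 in the middle one.

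In transplanted HSC, aged against young marrow gave 0 of 9 called and 0 of 9 at an unadjusted p under 0.05, where 1.35% of all genes were called and 15.2% had an unadjusted p under 0.05. Txnip was 0.38 higher after aged marrow (SE 0.21, adjusted p 0.433) and Sod1 0.12 higher (adjusted p 0.808), both without overlap of the 2 arrays against 2. Nfe2l2 was lower after aged marrow, with a log2 difference of -0.45 (SE 0.22, adjusted p 0.366), also without overlap. Arrays did not overlap in these 3 of 9 genes and in 31.7% of all genes. Foxo4 gave 0.26, Foxo3 0.12, and the remaining 4 genes gave 0.01 for Gpx1, -0.03 for Cat, -0.04 for Foxo1 and -0.08 for Sod2. Markers of other cells moved with this comparison. The mean level of 5 macrophage markers was 4.18 to 4.28 after aged and 5.07 to 5.36 after young marrow. Among them Csf1r, the receptor for macrophage colony-stimulating factor, was called lower at 3.24 after aged and 6.85 after young marrow. The other tested macrophage markers, C1qa (-0.58), Cd68 (-0.39) and Mrc1 (-0.11), were lower but not called. After aged marrow, 4 of the 5 macrophage markers were under the 25th percentile over genes. Erythroid markers averaged 5.37 to 5.43 after aged and 4.81 to 5.33 after young marrow, and Slc4a1, the red cell anion exchanger, was called higher at 5.67 after aged and 3.41 after young marrow. Among the other tested erythroid markers, Klf1 (-0.86) and Epor (-0.16) were lower and Car1 (0.93) and Alas2 (0.21) higher, none of them called. The lower levels of Csf1r and of Slc4a1 were under the 25th percentile over genes, and the part of these cells in the age differences was not tested.

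On its brightest probe set, Nfe2l2 thus had age differences of opposite sign with and without transplantation. Its second probe set, 1457117_at, did not show this, at 0.15 with transplantation and 0.22 without, neither of them called. On the brightest probe set the difference between both age effects was -0.85 (SE 0.28, 95% interval -1.48 to -0.22), with an unadjusted p of 0.0130 and an adjusted p of 0.347 in limma, so it did not pass the threshold, and with both probe sets averaged it was -0.46 (adjusted p 0.789). None of the 9 genes passed this test of the difference (1 at an unadjusted p under 0.05), where 0.125% of all genes were called and 9.73% had an unadjusted p under 0.05.

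In iPSC of aged against young origin, 0 of 9 genes were called and 0 of 9 had an unadjusted p under 0.05, where 0.00733% of all genes were called and 4.98% had an unadjusted p under 0.05. The differences were 0.17 or less in size and all intervals lay within -0.51 and 0.53. Sod2 was lower on both aged-origin arrays, with a log2 difference of -0.16 (adjusted p 0.976), and the arrays of the other 8 genes overlapped. Arrays did not overlap in 33.4% of all genes. Feeder fibroblast markers averaged 5.29 to 5.46 on the aged-origin arrays and 5.29 and 6.02 on the young-origin arrays. All 5 tested were lower with aged origin (median log2 difference -0.37), none of them called, and their part was not tested.

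Over the 6 pathway lists, 1 of 101 distinct genes tested was called with age in steady-state HSC, which is 0.99% and near the 1.18% of all genes. After transplantation it was 0 of 101, against 1.35% of all genes, and in iPSC 0 of 99, against 0.00733%. The called gene was Gpx8, a glutathione peroxidase of the endoplasmic reticulum, which had 6.31, 6.98 and 6.79 in aged and 4.75, 4.29 and 3.83 in young steady-state HSC. It was 2.40 higher on the log2 scale (SE 0.25, adjusted p 0.00118), and the young mean of 4.29 was under 4.57, the 25th percentile over genes there. In transplanted HSC it was 5.78 and 5.89 after aged marrow and 4.60 and 4.78 after young marrow, a difference of 1.14 that was not called (adjusted p 0.117). In iPSC it was 5.80 and 5.97 with aged origin and 5.87 and 6.30 with young origin, so the aged and young arrays overlapped there.

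Transplanted HSC were finally compared with steady-state HSC over both ages. In this comparison 8 of 9 genes were called, 6 lower and 2 higher, but 69.9% of all genes were called, 50.1% lower and 19.8% higher. The median log2 difference was -0.52 over the 9 genes and -0.46 over all genes, or -0.66 over all genes with each array centred on its median. Over all single probe sets the median was only -0.15, with 39.4% called lower and 29.8% higher. The brightest probe set was chosen over all arrays, most of them not transplanted. That choice can favour probe sets that are low on the transplanted arrays, and its part in the gene values was not tested. A broad fall after transplantation is therefore not read from them. On the brightest probe sets Nfe2l2 (-1.77, SE 0.14, adjusted p 1.98e-06), Txnip (-1.72, SE 0.13, adjusted p 1.66e-06), Foxo1 (-1.60, SE 0.15, adjusted p 6.00e-06) and Foxo3 (-1.13, SE 0.11, adjusted p 9.15e-06) were lower. Foxo4 was higher (0.94, SE 0.14, adjusted p 1.43e-04). These 5 genes and Sod2 (-0.52) had arrays that did not overlap, 6 of 9 against 54.8% of all genes. Cat (-0.38) and Gpx1 (0.42) were called, but each lost its call without any single one of 6 arrays (Cat -0.30 to -0.37, Gpx1 0.32 to 0.43), Cat with quantile normalisation (-0.25) and Gpx1 with median centring (0.21). Sod1 (0.03) was not called, and its sign turned with both of these scalings.

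Probe sets of one gene disagreed in the transplanted arrays. Of 24 tested, 7 were called higher, 11 lower and 6 not at all, against 29.8% and 39.4% of all probe sets called higher and lower. Foxo3 probe set 1450236_at had 11.24 and 10.90 after aged marrow and 10.70 and 10.96 after young marrow, against 4.84, 4.58 and 4.78 in aged and 4.84, 4.82 and 5.17 in young steady-state HSC, and 4.96 to 5.28 on the pluripotent arrays. It was called higher, at a log2 difference of 6.11 whose size is uncertain, because the steady-state level was close to the 25th percentile over genes (4.57). The other 2 Foxo3 probe sets were called lower.

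The second Txnip probe set, 1415997_at, was called higher by 1.47 with 11.24, 11.39, 11.93 and 9.72 on the transplanted arrays, against 9.16 to 10.60 on the steady-state arrays. Foxo1 probe set 1456529_at was called higher by 1.78, Sod2 probe set 1417194_at higher by 2.00 and Cat probe set 1416430_at higher by 0.62, while Foxo4 probe set 1422149_at was called lower at -0.56. Of the 7 called genes with a further tested probe set, 6 had one called in the opposite direction, against 48% of 4898 such genes over the array. Nfe2l2 was the exception, with its second probe set at -0.29 and not called. With a gene's probe sets averaged, Foxo3 turned to 1.43 (adjusted p 6.64e-07), and only Nfe2l2 remained among the genes called lower. The labels do not say whether the transplanted arrays were prepared as the others were, and the part of preparation was not tested.

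Markers moved with this comparison too. The 7 HSC markers were all called lower in transplanted HSC, against 50.1% of all genes. Their median log2 difference was -1.74, against -0.46 over all genes. These values too rest on the brightest probe sets, whose choice can favour probe sets that are low on the transplanted arrays. On the transplanted arrays, granulocyte markers averaged 5.07 to 6.84, macrophage markers 4.18 to 5.36, megakaryocyte markers 7.17 to 7.52, B cell markers 4.50 to 4.74, T cell markers 4.41 to 4.60 and erythroid markers 4.81 to 5.43. On the steady-state arrays, granulocyte markers averaged 6.55 to 8.41, macrophage markers 5.60 to 6.29, megakaryocyte markers 7.64 to 8.24, B cell markers 5.37 to 5.71, T cell markers 4.46 to 4.87 and erythroid markers 5.04 to 5.85. The granulocyte, T cell and erythroid ranges overlapped, and the other 3 did not. The part of these cells in the values was not tested. Among the tested erythroid markers only Alas2 was called, higher at 5.96 in transplanted and 4.82 in steady-state HSC (log2 difference 1.14). Car1 (-0.74), Klf1 (-0.70), Epor (-0.57) and Slc4a1 (-0.26) were not called. The alpha-globin gene Hba-a1 was below the 25th percentile in every group, at 3.51 to 4.07.

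Among FoxO targets, 13 of 20 were lower in transplanted HSC, against 50.1% of all genes, and 1 was higher, with a median of -0.74 against -0.46 over all genes. Ccng2 (-3.65), the insulin receptor Insr (-2.16) and the stress sensor Gadd45a (-2.02) fell most, and Irs2 (0.40) was higher, a call lost with both other scalings. Of 11 called targets with a further probe set, 6 had one called in the opposite direction, against 48% of 4898 such genes over the array. Averaging probe sets left 8 lower and 5 higher. The steady-state arrays are shared with the iPSC comparison, so both sets of target values are not independent.

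In the remaining lists more genes were called lower than higher, as over all genes, of which 50.1% were lower and 19.8% higher. The shares of NRF2 genes and of further antioxidant enzymes called lower were near that of all genes. Of 17 FoxO regulators 11 were lower, led by Sirt1 (-3.28), Inpp5d (-2.88) and Akt1 (-2.16), and 2 were higher, Pik3ca (1.41) and Ywhaz (1.28). Of 24 NRF2 genes 12 were lower, led by Taldo1 (-3.37), Bach1 (-2.33) and Me1 (-1.85), and 3 were higher, Gstm1 (1.52), Gsr (1.09) and Cul3 (1.09). Of 29 further antioxidant enzymes 15 were lower, led by Glrx5 (-1.93), Txnrd2 (-1.86) and Gclc (-1.60), and 3 were higher, Glrx3 (1.28), Gsr and Gpx3 (0.43). Of 11 Txnip relatives and partners 7 were lower, led by Arrdc4 (-2.14), Arrdc3 (-1.87) and Itch (-1.77), and Ddit4 (1.49) and Slc2a1 (0.58) were higher. Of 7 NADPH oxidase subunits Cyba (-1.58), Cybb (-0.97) and Rac2 (-0.54) were among 4 lower, and Rac1 (1.05) was higher.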

How the data were processed

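The authors deposited intensity values on a linear scale, from 4.53 to 31493, for 45101 probe sets on 16 single-channel Affymetrix arrays. Per the labels' protocols, the QIAGEN microRNeasy kit gave total RNA, which was labelled as biotinylated cRNA. How the deposited intensities were summarised and scaled is not given in the sources used, and no detection calls were used, so low values may be background.

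The intensities were taken to log2 without a pseudocount. Of the probe sets, 34945 had 1 gene symbol, 932 several and 9160 were not listed, and 64 were controls. A gene was represented by its brightest probe set, genes under the 25th percentile of a fit were left out, and 13645 genes were tested with limma 3.58.1 in R 4.3.3 (lmFit and eBayes, Benjamini-Hochberg, threshold 0.05). The 10 HSC arrays, the 6 pluripotent arrays and all 16 arrays for iPSC against HSC were fitted with 6, 3 and 9 residual degrees of freedom. Each single-symbol probe set was also tested on its own. The fits were also run on simulated data, whose outcome is not given here and is not used as support. The number of arrays limits the precision.

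Every member gene is named, and of each list at most 3 called genes per direction by size of change. Members, lists and the naming rule were chosen with earlier results of these data known. Alternatives were quantile normalisation, median centring, other filters on dim genes, averaged probe sets, a robust prior that follows intensity, other sets of arrays, each array left out and the replicate number as a block. Deviations of same-numbered arrays correlated at 0.15, -0.19 and 0.19 for steady-state HSC, -0.16 for transplanted HSC and -0.05 for iPSC, so the numbers were not taken to pair arrays. A crossed pairing of the transplanted arrays was added after seeing the data.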

Additional observations from a re-analysis of the deposited data

Results flagged for a closer look

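Nfe2l2 was singled out because the age difference of its brightest probe set ran in opposite directions in both HSC settings on every array. All 3 aged steady-state arrays lay above the young ones (log2 difference 0.40), and both arrays after aged marrow lay below those after young marrow (-0.45). The difference between the age effects was -0.85 (SE 0.28), with an adjusted p of 0.347 in limma, so it did not pass the threshold. Leaving out each array in turn gave -1.12 to -0.58. The second Nfe2l2 probe set did not show opposite signs, with log2 differences of 0.15 with transplantation and 0.22 without, neither of them called. With both probe sets averaged, the difference between the age effects was -0.46 (adjusted p 0.789).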

How the results depend on the processing

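None of the 9 genes was called in any age comparison or in iPSC against ESC under any alternative run. The number of all genes called moved more. For age in steady-state HSC it was 161, against 89 with a filter at the 50th percentile, 280 with 16 arrays in 1 fit, 415 on those arrays alone, and 78 to 257 with an array left out. For age in transplanted HSC it was 184, against 112 and 674 under the first 2 of these, 0 of the genes on those arrays alone in limma (636 at an unadjusted p under 0.05), and 47 to 1467 with an array left out. For the difference of the age effects it was 17, against 3 with the filter, 199 with 16 arrays, and 1 to 723 with an array left out. For iPSC against ESC it was 15, against 33 with the filter, 66 with the intensity trend, 9 with 16 arrays, and 7 to 16 with an array left out. With the replicate number as a block the 4 counts were 94, 28, 0 (1167 at an unadjusted p under 0.05) and 6, and with the crossed pairing 66 for transplanted age and 2 for the difference. In transplanted against steady-state HSC, the genes called higher went down to 1 of 9 with median centring, the block or the crossed pairing, and those called lower to 1 of 9 with averaged probe sets. With an array left out they were 1 to 2 higher and 5 to 6 lower. Cat lost its call without the second array after young marrow, the first after aged marrow, aged steady-state array 1 or 2, or young steady-state array 1 or 3, and Gpx1 without the same 2 transplanted arrays, aged steady-state array 1 or 3, or young array 2 or 3. In iPSC against steady-state HSC, 4 to 5 genes were lower with an array left out, the fifth being Foxo4 without the second young-origin iPSC array (-0.37, adjusted p 0.0309).

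Signs turned in these values, and the cause was not tested. With averaged probe sets, transplanted against steady-state HSC gave 1.43 for Foxo3, 0.12 for Cat, 0.081 for Sod2 and -0.080 for Sod1, while Foxo1 (-0.25), Foxo4 (0.19) and Txnip (-0.13) lost their calls. iPSC against steady-state HSC gave 0.013 for Foxo1, 0.19 for Foxo4 and -0.10 for Sod1, and Cat gained a call (-0.30, adjusted p 0.0204). iPSC against ESC gave -0.0082 for Foxo1, -0.013 for Foxo3, 0.14 for Foxo4, -0.11 for Sod1 and -0.055 for Sod2. Age gave -0.047 for Foxo4 in steady-state HSC, 0.040 for Cat, -0.028 for Foxo3 and -0.022 for Foxo4 in transplanted HSC, and 0.24 for Nfe2l2 in iPSC. With quantile normalisation, age gave 0.016 for Cat and 0.032 for Foxo1 in transplanted HSC, and 0.0016 for Foxo3, 0.028 for Gpx1, 0.061 for Nfe2l2 and 0.013 for Sod1 in iPSC. Foxo4 gave 0.028 in iPSC against ESC and 0.058 against HSC, and Sod1 -0.062 in iPSC and -0.042 in transplanted against steady-state HSC. With median centring Gpx1 gave -0.032 for transplanted age, and Sod1 -0.00068 in iPSC and -0.18 in transplanted against steady-state HSC. The crossed pairing gave -0.0090 for Sod1.

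With an array left out, the values that turned sign were those for age of Foxo4 (-0.0021 to 0.16) and Sod1 (-0.067 to 0.044) in steady-state HSC, of Foxo1 (-0.28 to 0.20), Sod2 (-0.23 to 0.079), Cat (-0.20 to 0.14) and Gpx1 (-0.20 to 0.21) in transplanted HSC, of Foxo4 in the difference of age effects (-0.050 to 0.39), and of Foxo1 (-0.098 to 0.20), Foxo3 (-0.22 to 0.12), Foxo4 (-0.15 to 0.41), Sod1 (-0.097 to 0.0095), Cat (-0.34 to 0.074), Gpx1 (-0.26 to 0.13) and Nfe2l2 (-0.054 to 0.051) in iPSC. So did Foxo3 (-0.051 to 0.19), Foxo4 (-0.17 to 0.11) and Sod2 (-0.014 to 0.054) in iPSC against ESC and Gpx1 (-0.19 to 0.0052) in iPSC against HSC. Of 63 group levels, quantile normalisation moved 17, median centring 19 and averaged probe sets 54 by more than the spread between replicates. That spread rests on few arrays per group. The count for averaged probe sets says nothing of robustness. Over all arrays an average of several probe sets must lie below the brightest of them, and Gpx1, with a single probe set, could not move.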

Other observations

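For each gene, the array held other genes with nearly the same order of levels over the 7 group means, which share arrays and scaling, so the correlations describe and do not test. Closest to Foxo3 were Trim34a (Pearson r = 0.999) and the cytokine gene Il15 (0.998), among 13644 other genes. Il15 averaged 3.77 in aged-origin iPSC, 3.62 in young-origin iPSC, 3.48 in ESC, 6.25 in transplanted HSC after aged marrow and 6.18 after young marrow, and 7.92 in aged and 8.82 in young steady-state HSC. Closest to Txnip were Rrm2b, a ribonucleotide reductase subunit that p53 induces (0.999), and Btbd1 (0.998). Rrm2b averaged 6.53 in aged-origin iPSC, 6.69 in young-origin iPSC and 6.71 in ESC, 8.42 in transplanted HSC after aged marrow and 8.09 after young marrow, and 9.48 in aged and 9.37 in young steady-state HSC. Closest to Sod2 were Mindy3 (0.999) and Timm8b, a mitochondrial import chaperone (0.999), and closest to Nfe2l2 were Nemp1 (0.997) and Rc3h2 (0.995). Foxo1 was followed by Miga1 (0.994) and Arhgap28 (0.993), and Foxo4 by Extl3 (0.995) and Mkln1os (0.994). The flatter genes had less close partners, such as Iqgap1 for Cat (0.990), Snhg4 for Gpx1 (0.977) and Ecel1 for Sod1 (0.947).

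Of the NADPH oxidase subunits with age in steady-state HSC, 0 of 7 were called in limma, where 1.18% of all genes were called. Ncf4, a cytosolic subunit of the phagocyte oxidase, averaged 5.39 in aged and 7.03 in young steady-state HSC, a log2 difference of -1.63 (SE 0.40, adjusted p 0.131), and Ncf1 differed by -0.52 (adjusted p 0.768). Both were named after their values were seen. Cyba (-0.35), Rac2 (-0.31) and Rac1 (-0.12) were also lower, whereas Cybb (0.66) and Noxo1 (0.15) were higher, none of them called. Granulocyte markers averaged 7.08 to 7.94 on the aged and 6.55 to 8.41 on the young steady-state arrays, and their part in these values was not tested.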
